A study of Mus musculus with 4 samples.

Results

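The antioxidant and redox defence genes described here are 38 genes listed by symbol among the 32285 genes of the series. The rule used no measured value, but the list was drawn up with earlier results of these data known. They comprise 4 dismutase and catalase genes, 5 glutathione peroxidases, 6 peroxiredoxins, 4 genes of the thioredoxin system, 6 of glutathione supply, 5 glutathione transferases, 3 of quinone, haem and iron handling, 2 metallothioneins and 3 regulators, and all 38 were listed in every matrix. They were read in 4 single-cell RNA libraries of tail intervertebral discs from wildtype female C57BL/6 mice, 12 weeks old when bought. Injured discs (coccygeal levels CC5/6 to CC9/10) had been punctured from both sides with a 30G needle and were taken 7 days later. Control discs were unpunctured discs (CC12/13 to CC16/17) of the same tails, so tail level and injury cannot be told apart. Each group was prepared in 2 rounds, giving 1 control and 1 injured library per round. Discs of 6 mice (30 discs) were pooled per group, whether per round or in all not being stated, and the cells had been frozen, thawed and sorted for viability.

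Cells make superoxide and hydrogen peroxide during respiration and inflammation. Superoxide dismutases turn superoxide into hydrogen peroxide, which catalase, glutathione peroxidases and peroxiredoxins remove. Glutathione and thioredoxin supply the reducing power, metallothioneins and ferritin bind metals that would otherwise form radicals, and the transcription factor NRF2 (Nfe2l2), held back by KEAP1, switches on many of these genes. Disc cells live in a matrix with few blood vessels, and oxidative stress is a recognised feature of disc degeneration.

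Control 1 gave 378 barcodes with at least 250 genes, control 2 gave 856, injured 1 gave 778 and injured 2 gave 1834, where the number is the round. Median depth differed widely, at 1062 (control 1) and 836 (control 2) unique molecular identifiers (UMIs) per cell against 7034 and 4635 after injury. In round 1, 104 control cells carried barcodes that held 29.2 to 44.8 times more UMIs in the injured library, and 55 carried barcodes with similar UMIs in both. Counts of calls, and the members they change, are therefore also given without these shared barcodes. Disc cells were grouped by marker genes into inner annulus-like cells (116, 235, 442 and 1053 cells in control 1, control 2, injured 1 and injured 2), outer annulus-like cells (25, 53, 28 and 480) and nucleus pulposus-like cells (29, 71, 5 and 1). Without the shared barcodes the inner class of control 1 held 21 cells. Different clusters filled a class in each library. The inner class was mostly a Grem1 and Cnmd cluster in control 2 (199 cells), a Bmp2 and Nos2 cluster in injured 1 (381) and a Saa1 and Chil1 cluster in injured 2 (668), and in control 1 a Cxcl2 and Mmp3 cluster (93). The outer class was mostly a Myoc and Angptl7 cluster in the controls (16 and 44 cells) while in injured 2 it was 236 cells of an Aspn and Postn cluster, 108 of an AY036118 cluster, 84 dividing cells and 52 of the Myoc and Angptl7 cluster. In the disc, inner and outer sums macrophage and endothelial marker lists reached at most 79.6 and 35.5 CPM (UMIs of a gene per 1000000 UMIs of the sum) and mural markers 134.8 to 362 CPM. Neutrophil markers reached 141 CPM in the inner class of control 1 against 6.14 to 22.2 CPM in the other inner sums. In the outer class they stood at 18.2 and 0 CPM in controls and 81.1 and 10.8 CPM after injury. Their part in the results was not tested. Mitochondrial genes took 5.65% and 9.61% of UMIs in the control disc sums and 2.74% and 3.998% in the injured ones. In the outer class the shares were 2.25% and 4.04% in controls and 3.24% and 4.38% after injury, and in the inner class 2.504% and 7.96% against 2.63% and 3.82%. Their part was not tested either. Fth1, Prdx1, Gpx1, Gstm1 and Gstp1 have near-identical copies or close relatives, so their counts are uncertain.

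After injury Txnip, an inhibitor of thioredoxin, fell in outer annulus-like cells, to 66.1 and 77.7 CPM from 300.1 and 372 CPM. By edgeR with all barcodes and no block for the round, it was the single call among the 32 members tested in that class, where 2.53% of all genes were called, and 0 members were called in inner annulus-like cells (0.505% of all genes) or all disc cells (0.0971%). With the block Gpx7 and Prdx1 rose in the outer class and Txnip, Gstm1, Gpx3, Mt1 and Mt2 fell, where 8.22% of all genes were called, while Txnip and Gstm1 fell in the inner class (3.1%). Mt1 and Mt2 lost that call without the shared barcodes. Leaving these out with no block gave 4 inner class calls, Slc7a11 and Prdx5 higher and Txnip and Gstm1 lower (2.7% of all genes). Control 1 then held 21 inner class cells in place of 116. In the outer class Gpx7 was called higher beside Txnip (2.95%). The injury effect then differed between the classes for 4 members (1.75%), against 0 with all barcodes (0.683%). Within the Myoc and Angptl7 cluster of the outer class Gpx3, Mt1 and Mt2 were higher in injured 2 than in control 2.

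Injury was tested on UMIs summed per library and class, with edgeR's quasi-likelihood test and Benjamini-Hochberg adjustment over all genes tested (called: adjusted p under 0.05). Libraries are pools, so p-values measure the spread between libraries, which without a block includes the difference between rounds. Whether the rounds hold different animals is not stated. In disc cells together, all 38 members were tested and 0 were called, although 11 had an unadjusted p under 0.05. Of all 11333 genes 9.1% were under that threshold and 0.0971% were called. DESeq2 called 1 member, a gene of the thioredoxin system that was lower, and 1.04% of all genes. The median log2 fold change of the members by edgeR was 0.48, beside 0.05 over all genes tested. In the inner class 36 members were tested and 0 were called, with 5 at an unadjusted p under 0.05 (8.43% of all genes) and 0 by DESeq2; 0.505% of all genes were called, and the medians were 0.46 and 0.02. With the round as a block 2 members were called there, both lower (3.1% of all genes were called and 1.87% were lower). In the outer class 32 members were tested and 1 was called, lower in injured discs, beside 2.53% of all genes called and 1.36% called lower; the medians were 0.08 and 0.02. With the round as a block 7 members were called, 2 higher and 5 lower, against 8.22% of all genes (3.51% higher and 4.71% lower). With the block disc cells gave 0 calls among members, 13 with an unadjusted p under 0.05 (0.503% of all genes called and 13.8% under that threshold). Both injured libraries lay above both controls for 14 of 38 members in disc cells (16.9% of all genes), for 10 of 36 in the inner class (12.6%) and for 10 of 32 in the outer class (27.1%). Both lay below for 3 members in disc cells (22.5%), 4 in the inner class (24.3%) and 5 in the outer class (20.2%).

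Leaving out the shared barcodes changed the counts. The inner class then had 4 members called, with Slc7a11 and Prdx5 higher and Txnip and Gstm1 lower (2.7% of all genes), and 6 with the block as well, Gpx3 and Txn1 being added (4.41%). The outer class had 2, Gpx7 higher and Txnip lower (2.95%), and 5 with the block (6.94%), where Mt1 and Mt2 were no longer called (edgeR adjusted p = 0.0536 and 0.0517). The median log2 difference of Mt1 and Mt2 with the block was -1.05 with all barcodes and -1.03 without the shared ones. Disc cells without shared barcodes but with an unresolved disc cluster had 0 (0.0179%), and 5 with the block, Gpx7, Prdx5, Slc7a11 and Nqo1 higher and Gstm1 lower (2.2%). In the same sets both injured libraries lay above both controls for 15 of 37 members in disc cells (17.1% of all genes), 15 of 36 in the inner class (15.9%) and 10 of 33 in the outer class (26.4%). They lay below for 4 (21%), 5 (26.2%) and 5 (21.6%). The inner class members that joined those above were Gpx7, Gpx8, Slc7a11, Nqo1 and Fth1. Few UMIs of control 1 stood behind some of these orders. For 7 of the 15 inner class members, Gpx7, Gpx8, Gss, Gsr, Slc7a11, Nqo1 and Keap1, what the UMIs of control 1 allow (the exact Poisson 95% limit, or 3 UMIs where there were 0) reached past the lower injured library. That held for 4 of the 15 in disc cells and 8 of the 10 in the outer class. Genes of dividing cells moved with the outer class: 6 markers summed to 54.6 and 31.0 CPM in controls and 715 and 434 CPM after injury, and their part in the outer class results was not tested.

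**Figure D1:**
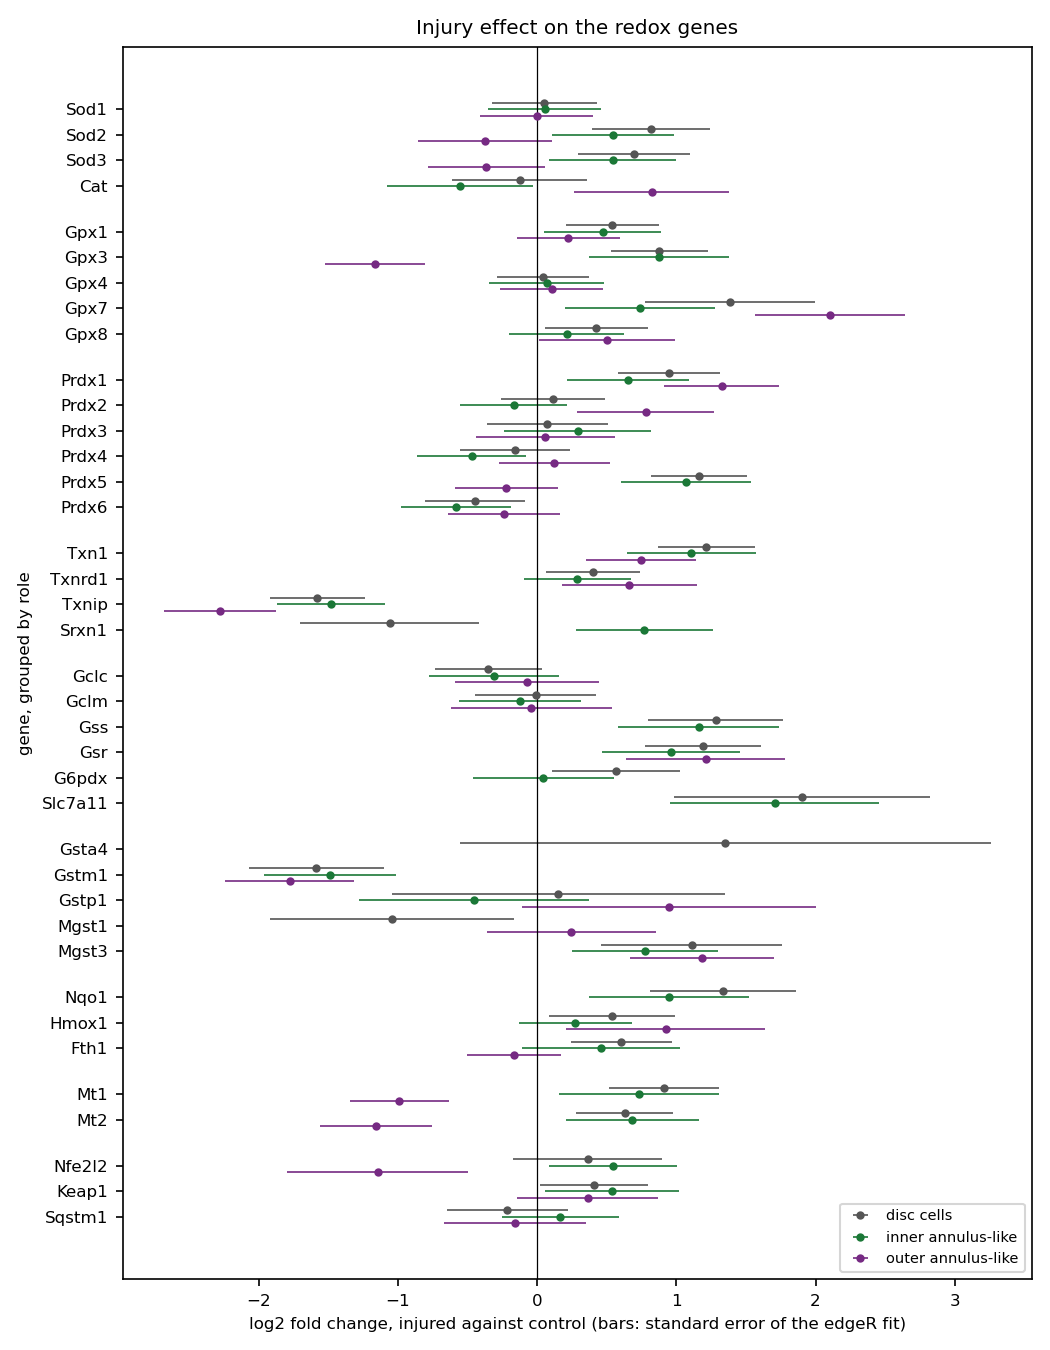
Log2 fold change of injured against control for each redox gene (rows, by role) in all disc cells, inner annulus-like and outer annulus-like cells. Points are edgeR estimates and bars their standard errors; Txnip and Gstm1 lie to the left of 0 in all 3, while Gpx3, Mt1 and Mt2 lie on opposite sides of 0 in the inner and outer classes.

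Txnip, which encodes an arrestin-like protein that binds and inhibits thioredoxin, was the member called in the outer class with all barcodes and no block. In outer annulus-like cells it measured 300.1 and 372 CPM in the control libraries and 66.1 and 77.7 CPM in the injured libraries. It fell by 2.28 ± 0.40 on the log2 scale (SE, n = 2 against 2 libraries, adjusted p = 0.0267 by edgeR). Without control 2 the log2 difference was -2.09 ± 0.59 and was not called (adjusted p = 0.155 by edgeR), in a fit that leaves 1 control library and assumes that it varies like the injured ones. In the inner class Txnip stood at 202 and 228 CPM in controls and 82.4 and 56.5 CPM after injury, a log2 difference of -1.48 ± 0.39 (adjusted p = 0.114, and 0.00061 in edgeR with the round as a block). All disc cells gave 211 and 252 CPM against 81.4 and 63.3 CPM, which was not called (adjusted p = 0.193 by edgeR). In each of these sums the groups did not overlap.

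Thioredoxin itself, Txn1, was higher in both injured libraries but not called. Its inner class values were 1042 and 911 CPM in controls and 1679.7 and 2046 CPM after injury (log2 1.11 ± 0.46, adjusted p = 0.5 by edgeR). Without the shared barcodes and with the block it was called (log2 1.37, edgeR adjusted p = 0.0117). Txnrd1, the reductase that recharges thioredoxin, was not called (log2 0.29 ± 0.38 in the inner class). Srxn1, which repairs overoxidised peroxiredoxins, reached 229 CPM in disc cells of control 1 only through a single nucleus pulposus-like cell, which held 68 of the 73 Srxn1 UMIs in that class.

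Of the 6 peroxiredoxins, thiol enzymes that reduce hydrogen peroxide, 1 was called with the block, in the outer class. Prdx1 measured 364 and 225 CPM in control outer annulus-like cells and 817 and 712 CPM in injured ones (log2 1.33 ± 0.41, adjusted p = 0.124, and 0.0312 in edgeR with the block). Within the Myoc and Angptl7 cluster of round 2 it stood at 227 CPM (95% interval 180.3 to 282) in the control and 247 CPM (95% interval 195 to 308) after injury, with overlapping intervals. The Aspn and Postn cluster and the dividing cells, which were mostly of injured 2, held 736 and 847 CPM there. In the inner class Prdx1 was higher within each round, with 478 and 298 CPM against 676 and 403 CPM, but the groups overlapped and it was not called with the block (edgeR adjusted p = 0.457). Prdx5, a peroxiredoxin of mitochondria, peroxisomes and cytosol, was higher in both injured libraries of the inner class. Its values there were 888 and 514 CPM in controls and 1173 and 1416 CPM after injury (log2 1.07 ± 0.46, adjusted p = 0.523 by edgeR). Without the shared barcodes control 1 stood at 393 CPM and Prdx5 was called (log2 1.74, edgeR adjusted p = 0.0114). In the outer class it stood at 464 and 490.5 CPM and 475 and 392 CPM, with overlapping groups. Prdx2, Prdx4 and Prdx6 were lower in both injured libraries of the inner class (log2 -0.17, -0.47 and -0.58) and were not called, and Prdx3 had a log2 difference of 0.29.

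Among the glutathione peroxidases, Gpx3 is the secreted form and Gpx7 an enzyme of the endoplasmic reticulum. Gpx7 measured 54.6 and 25.8 CPM in control outer annulus-like cells and 123 and 186 CPM after injury (log2 2.10 ± 0.54, adjusted p = 0.0743, and 0.027 in edgeR with the block). Its inner class values overlapped, at 24.5 and 19.2 CPM and 20.1 and 40.1 CPM, but control 1 stood at 10.9 CPM without the shared barcodes, which was 1 UMI (95% interval 0.277 to 60.9 CPM), and Gpx7 was not called there (edgeR adjusted p = 0.527). Within injured 2 Gpx7 was higher in the Aspn and Postn cluster (203 CPM) and the dividing cells (219 CPM) than in the Myoc and Angptl7 cluster (40.6 CPM). In the Myoc and Angptl7 cluster control 2 stood at 28.0 CPM (95% interval 13.4 to 51.5). The interval of injured 2 there, 21.6 to 69.5 CPM, overlapped it. Gpx3 was lower after injury in the outer class, at 1564 and 2189 CPM against 949 and 821 CPM (log2 -1.16 ± 0.36, adjusted p = 0.124, and 0.0346 in edgeR with the block). In the inner class both injured libraries were above the controls, with 2708 and 1567 CPM against 3213 and 3732 CPM (log2 0.88 ± 0.50, adjusted p = 0.716 by edgeR). Without the shared barcodes control 1 stood at 1453 CPM (log2 1.46, edgeR adjusted p = 0.0655), and Gpx3 was called with the block as well (edgeR adjusted p = 0.011). Gpx1, Gpx4 and Gpx8 were not called, with log2 differences between 0.10 and 0.50 in the outer class.

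**Figure D2:**
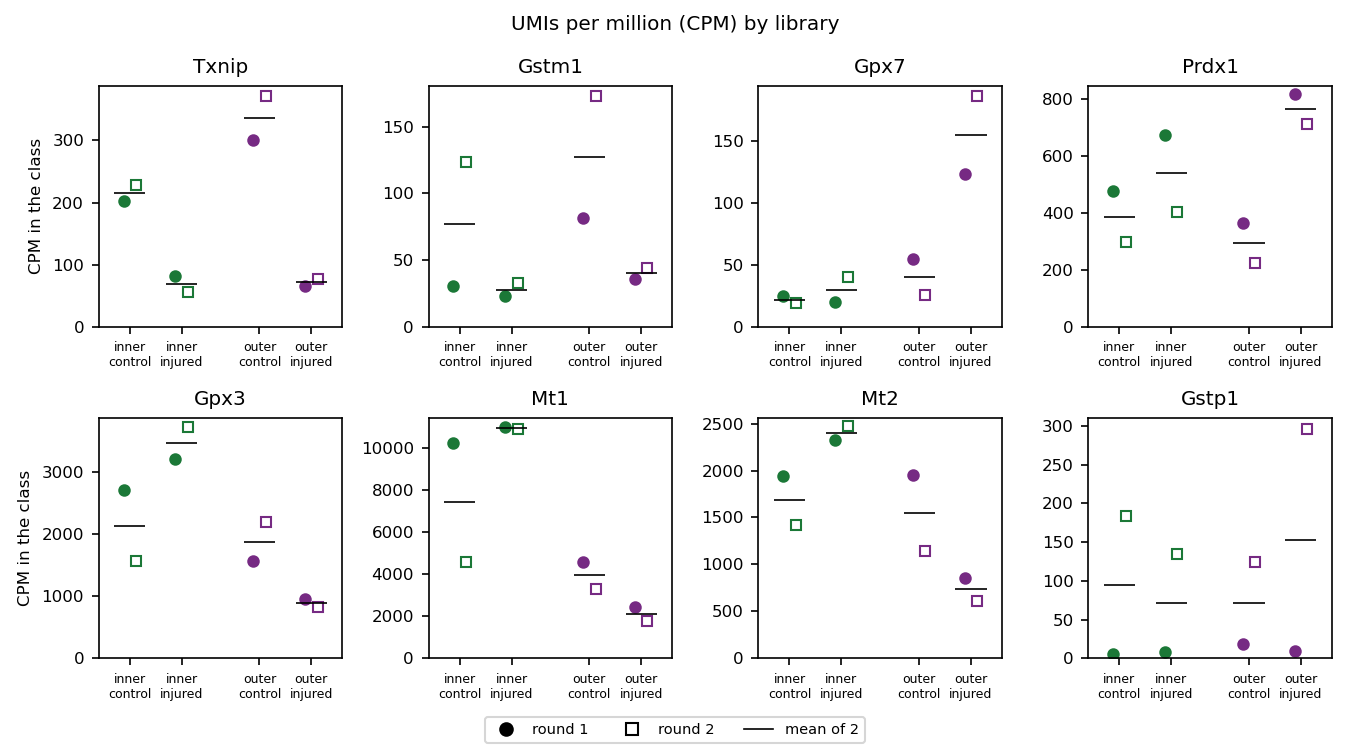
CPM of 8 redox genes in inner (green) and outer (purple) annulus-like cells, with a filled circle for round 1, an open square for round 2 and a line for the mean of both. Both injured libraries sit below both controls for Txnip in each class, and Gstp1 separates by round in place of injury.

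Metallothioneins are small cysteine-rich proteins that bind zinc and copper. Mt1 (GRCm38 chr8:94179082-94180327) and Mt2 (chr8:94172664-94173568) lie side by side on the plus strand, and their sequences before the RefSeq starts (up to the GENCODE start for Mt1) are shown because both were called lower in the outer class with the block. Capitals mark the letters TGCACNC or TGCGCNC, the core of the metal response element, on either strand. The Txnip sequence is set beside them as that of the member that fell.

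Mt1, chr8:94178839-94179081, plus strand: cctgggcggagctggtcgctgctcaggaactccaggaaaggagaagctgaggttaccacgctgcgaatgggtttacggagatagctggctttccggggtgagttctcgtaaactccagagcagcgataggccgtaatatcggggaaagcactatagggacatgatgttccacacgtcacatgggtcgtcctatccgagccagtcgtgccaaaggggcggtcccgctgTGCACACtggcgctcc
Mt2, chr8:94172368-94172617, plus strand: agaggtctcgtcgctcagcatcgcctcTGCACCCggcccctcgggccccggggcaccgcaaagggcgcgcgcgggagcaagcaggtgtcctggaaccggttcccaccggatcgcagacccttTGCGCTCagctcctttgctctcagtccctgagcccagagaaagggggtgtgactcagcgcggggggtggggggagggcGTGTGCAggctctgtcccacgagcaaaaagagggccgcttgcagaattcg
Txnip, chr3:96557707-96557956, plus strand: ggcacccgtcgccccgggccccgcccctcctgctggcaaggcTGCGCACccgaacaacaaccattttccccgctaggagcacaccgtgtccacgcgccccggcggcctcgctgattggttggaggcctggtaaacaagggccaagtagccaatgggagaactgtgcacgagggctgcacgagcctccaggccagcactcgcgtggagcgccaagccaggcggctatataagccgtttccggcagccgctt

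These come from RefSeq on GRCm38.p6. Mt2 held 3 matches, Mt1 held 1 and Txnip held 1, while 21.4% of 32851 annotated starts held at least 1 in 250 bases and 1.26% held 3 or more. Of the 38 members 32 had an entry, and 8 of them held TGACNNNGC, a core of the antioxidant response element, on either strand at 1 or more of their starts, beside 11.5% of all 27025 genes counted the same way. The members not matched were Hmox1, Prdx6, Sod3, Gsta4, Gsr and Gclc. A match describes letters only. Matches past the annotated starts were not counted, so these are not counts for whole promoters.

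In outer annulus-like cells Mt1 measured 4583 and 3304 CPM in controls and 2427 and 1777 CPM after injury (log2 -0.99 ± 0.36, adjusted p = 0.189, and 0.0386 in edgeR with the block). Mt2 measured 1955 and 1146 CPM and 859 and 611 CPM (log2 -1.16 ± 0.40, adjusted p = 0.173, and 0.0373 in edgeR with the block). In the inner class the order was the opposite. Mt1 stood at 10238 and 4588 CPM against 10993 and 10904 CPM and Mt2 at 1942 and 1420.1 CPM against 2322 and 2472 CPM, neither called (edgeR adjusted p = 0.836 and 0.793). Without the shared barcodes control 1 stood at 5789 CPM of Mt1 and 1540.0 CPM of Mt2, and neither was called (edgeR adjusted p = 0.139 and 0.344).

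The difference between the injury effects in the classes was tested as a class by injury term. Of 37 members tested 0 were called, with 10 at an unadjusted p under 0.05 (8.6% of all genes) and 0 by DESeq2, and 0.683% of all genes were called by edgeR. The outer minus inner difference was -2.06 ± 0.51 for Gpx3 (adjusted p = 0.0589 by edgeR), -1.80 ± 0.47 for Mt2 (0.077) and -1.81 ± 0.53 for Mt1 (0.132). Without the shared barcodes 4 members were called, all with the lower effect in the outer class, beside 1.75% of all genes called and 1.13% called lower. These were Gpx3 (-2.48, edgeR adjusted p = 9.4e-05), Mt1 (-2.19, 0.00138), Mt2 (-1.94, 0.00421) and Prdx5 (-1.84, 0.00765).

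The cell clusters behind these class sums differed between groups, so the members were also read within 3 clusters that both round 2 libraries filled. With 1 library per group there was no test, and intervals are exact Poisson 95% intervals that cover counting error only. In the Myoc and Angptl7 cluster of the outer class (44 and 52 cells) Gpx3 was higher after injury, at 2306 CPM (95% interval 2151 to 2469.5) against 3790.2 CPM (95% interval 3579.9 to 4009.7). Mt1 was also higher there, at 3464 CPM (95% interval 3273 to 3662) against 4978 CPM (95% interval 4736 to 5228). Mt2 was higher as well, at 1225 CPM (95% interval 1113 to 1345) against 1894 CPM (95% interval 1746 to 2050.5). The outer class sums thus ran the other way from this cluster for these 3 genes. The Aspn and Postn cluster, which held 236 cells of injured 2 and 4 of control 2, had 410.0 CPM of Gpx3 and 1489.6 CPM of Mt1.

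Txnip was also lower after injury inside 2 of the 3 clusters. It measured 356 CPM (95% interval 297 to 423) against 137 CPM (95% interval 99.9 to 185) in the Myoc and Angptl7 cluster. In the Grem1 and Cnmd cluster of the inner class (199 and 67 cells) it measured 285 CPM (95% interval 252 to 319.9) against 125 CPM (95% interval 83.6 to 179). In the Saa1 and Chil1 cluster, which held most inner class cells of injured 2 (668) but 25 control cells, it was 52.3 CPM against 57.1 CPM, with overlapping intervals. Intervals lay apart and higher after injury for 8 of 36 tested members in the Grem1 and Cnmd cluster (3.07% of all genes tested in the class) and for 7 of 32 in the Myoc and Angptl7 cluster (3.19%), among them Fth1, Mt1, Mt2, Prdx2 and Prdx5 in both. They lay apart and lower for 2 in each, Sod3 and Txnip in the first (2.41%) and Txnip and Gstm1 in the second (5.98%). In the Saa1 and Chil1 cluster they lay apart and higher for Srxn1, Hmox1, Fth1 and Mt1 (2.7% of all genes tested), and lower for Gpx3 (3.77%). Such intervals come apart more readily for abundant genes, such as Fth1 with 5749 UMIs in the Grem1 and Cnmd cluster of control 2. The shares of all genes were not matched for abundance.

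**Figure D3:**
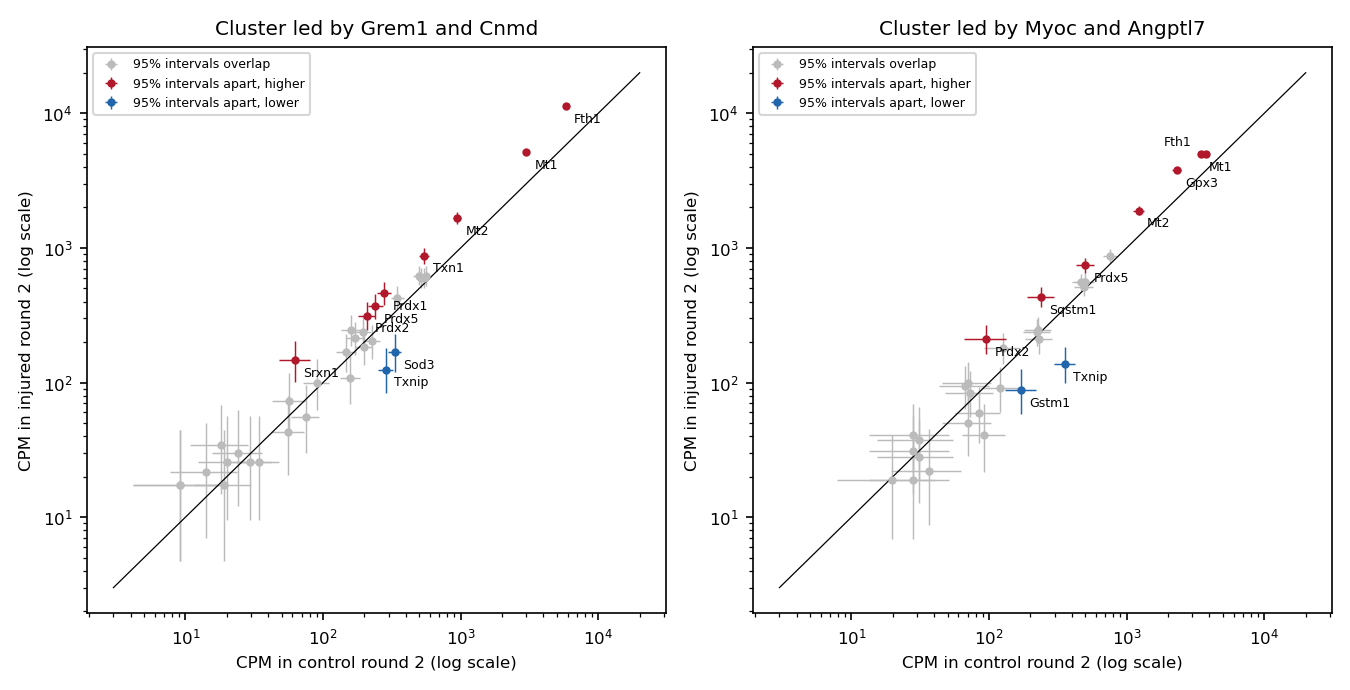
CPM of redox genes in injured round 2 against control round 2 within 2 clusters, both axes on a log scale, for members with over 3 UMIs in both. Bars are exact Poisson 95% intervals and the line marks equal levels; Txnip lies below the line and Mt1, Mt2 and Fth1 lie above it in both clusters.

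Glutathione transferases join glutathione to reactive compounds. Gstm1 had a negative log2 difference in disc, inner and outer sums. In the outer class it measured 81.8 and 173 CPM in controls and 36.0 and 43.9 CPM after injury (log2 -1.78 ± 0.46, adjusted p = 0.0775, and 0.0224 in edgeR with the block). Inner class values were 30.6 and 124 CPM and 22.8 and 32.9 CPM, which overlapped but were lower within each round (log2 -1.49 ± 0.48, adjusted p = 0.266, and 0.0156 in edgeR with the block). Mgst3, a microsomal member of the family, stood at 12.3 and 21.5 CPM and 21.0 and 37.1 CPM in the inner class, higher within each round and not called with or without the block. Gsta4 was nearly undetected, with at most 4.72 CPM in disc cells, and Mgst1 was too low for a test in the inner class.

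Gstp1 differed by round, a pattern singled out after its values were seen. In disc cells the round 1 libraries gave 8.93 CPM (control, 3 UMIs) and 8.03 CPM (injured, 46 UMIs), and the round 2 libraries gave 164 CPM and 185 CPM. Both round 2 libraries exceeded both round 1 libraries more than 10 times for 16 of 11333 genes tested, including Gstp1 and its close copy Gstp2, and the reverse held for 6 genes. Reads of Gstp1 and Gstp2 may not be separable. The injury comparison of Gstp1 gave a log2 difference of 0.15 ± 1.19 and was not called.

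Glutathione supply starts with cystine uptake by the Slc7a11 transporter and ends with the ligase Gss. Slc7a11 varied by round, with 55.1 and 8.44 CPM in inner class controls and 94.0 and 23.0 CPM after injury (log2 1.71 ± 0.75, adjusted p = 0.529 by edgeR). Control 1 had 0 UMIs once shared barcodes were left out, and Slc7a11 was then called (edgeR adjusted p = 0.00115). A count of 0 in that sum allows up to 32.8 CPM, above the 23.0 CPM of injured 2, so control 1 alone does not place Slc7a11 below that library. Gss was higher in both injured libraries at low counts, with 12.3 and 9.21 CPM and 22.7 and 16.6 CPM, and was not called. Gsr, which regenerates glutathione, gave a log2 difference of 0.96 ± 0.49, while Gclc, Gclm and G6pdx ranged from -0.31 to 0.04, none called.

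Of the dismutases, the mitochondrial Sod2 measured 368 and 207 CPM in inner class controls and 472 and 264 CPM after injury. It was higher after injury within each round, but the groups overlapped and it was not called with the block (edgeR adjusted p = 0.559). Catalase (Cat) stood at 6.13 and 33.0 CPM in controls and 15.04 and 16.1 CPM after injury, also overlapping. The cytosolic Sod1 (log2 0.05 ± 0.41) and the extracellular Sod3 (log2 0.54 ± 0.46) were not called. Fth1, the ferritin heavy chain that stores iron, measured 11653 and 7139 CPM and 10899.6 and 12012 CPM, and the quinone reductase Nqo1 30.6 and 11.5 CPM and 22.1 and 32.0 CPM. Both overlapped with all barcodes. Without the shared ones control 1 stood at 7929 CPM of Fth1, below both injured libraries, and 10.9 CPM of Nqo1, again 1 UMI, and neither was called in the inner class (edgeR adjusted p = 0.49 and 0.244). Nqo1 was called higher in disc cells without shared barcodes, with the unresolved cluster and the block (edgeR adjusted p = 0.0369). Hmox1, which breaks down haem, overlapped (log2 0.27 ± 0.41). Nfe2l2 gave 129 and 79.8 CPM and 189 and 71.6 CPM in the inner class, and 218 and 64.5 CPM and 96.1 and 36.6 CPM in the outer class, overlapping in both. Its outer minus inner difference was -1.35 ± 0.46 (adjusted p = 0.266 by edgeR), and -1.72 without the shared barcodes (edgeR adjusted p = 0.0506), which was not called. Its repressor Keap1 gave 12.3 and 30.7 CPM and 32.7 and 33.6 CPM, and the KEAP1-binding autophagy adaptor Sqstm1 a log2 difference of 0.17 ± 0.42; no regulator was called.

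Levels of several members varied by cell class. Clusters were built without the members, and these levels are a description. Macrophage-like cells of the injured libraries (37 and 88 cells) held 1543 and 1549 CPM of Gpx1, against 545 to 729.8 CPM in the inner class. Their Hmox1 differed between rounds, at 1526 and 235 CPM, as it did in endothelial-like cells (37 and 16 cells) at 635 and 45.8 CPM. The secreted enzymes Sod3 and Gpx3 were highest in annulus-like cells. Sod3 ranged over 457 to 1031 CPM in the inner class and 282 to 565 CPM in the outer class, but was 11.2 and 17.3 CPM in macrophage-like cells. Nucleus pulposus-like cells of the controls gave 0 Sod3 UMIs, which allows up to 47.9 and 27.6 CPM. They held 79.8 and 147 CPM of Gpx3 and 399 and 680.2 CPM of Mt1, below every annulus-like sum, and 159.7 and 129 CPM of Mgst1, above every one. Mural-like cells (13 and 18) had Gstm1 at 102 and 571 CPM.

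**Figure D4:**
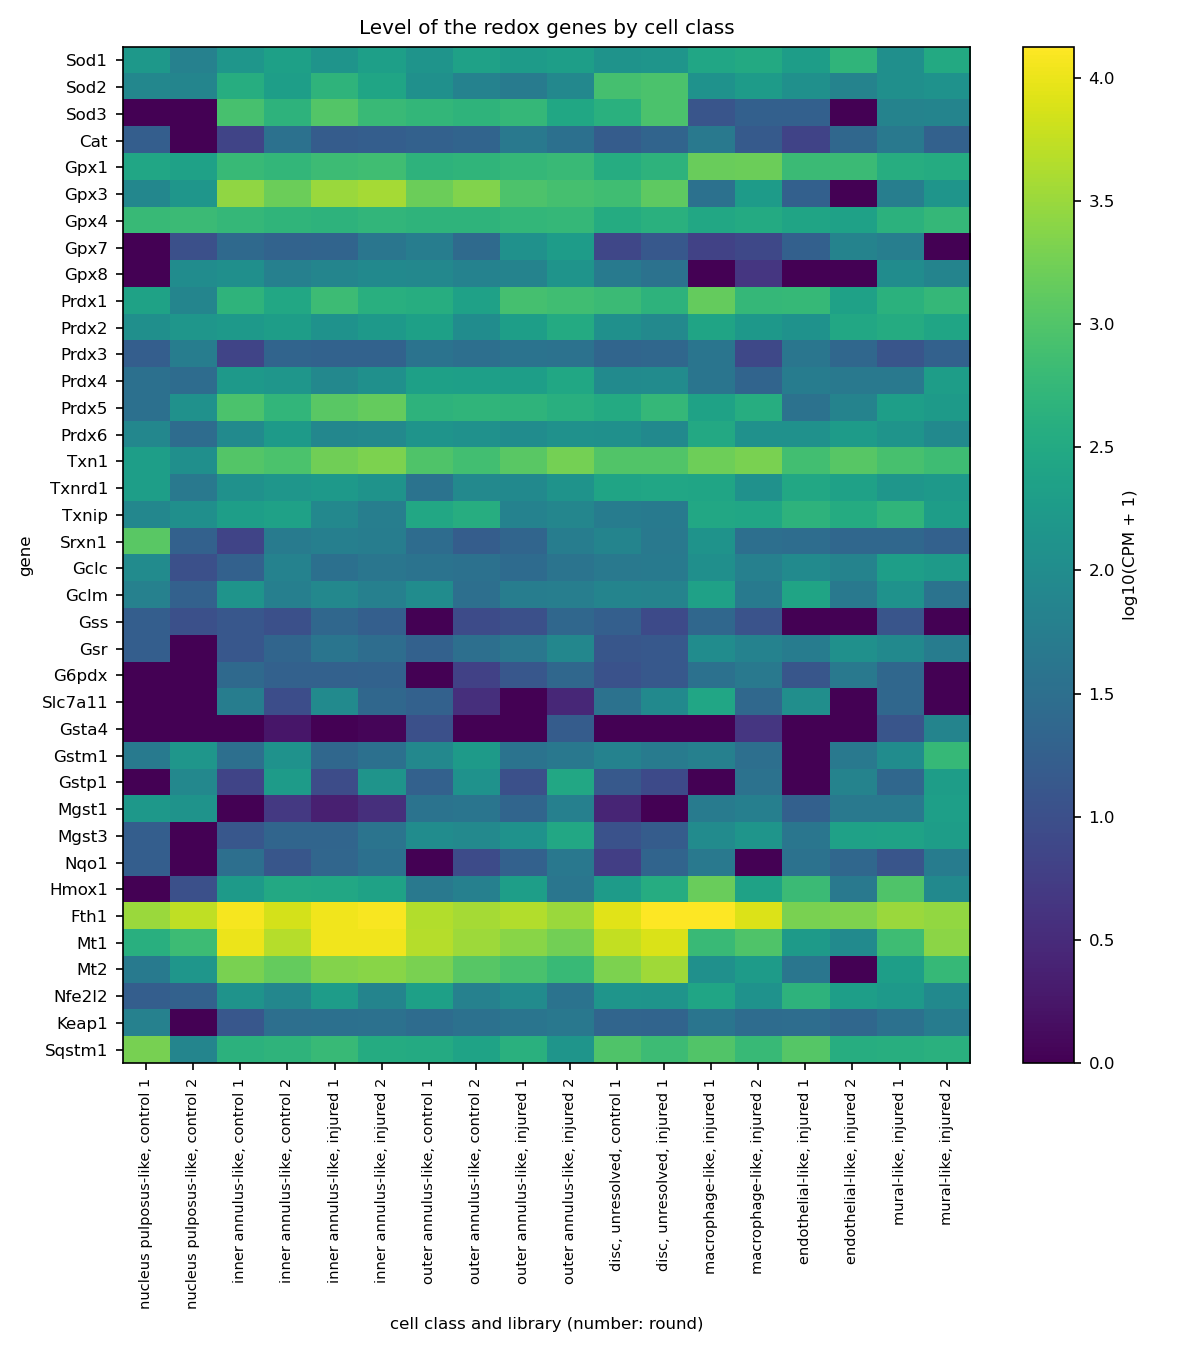
Level of each redox gene (rows) in each cell class and library (columns) as log10(CPM + 1). Sod3, Gpx3, Mt1 and Mt2 are high in the annulus-like columns and low in nucleus pulposus-like, macrophage-like and endothelial-like ones, while Gpx1 is highest in macrophage-like columns.

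Free RNA was read from barcodes with at most 100 UMIs, which 3 matrices list. Levels in disc cells exceeded those in free RNA for 34 of 38 members in control 2, 25 in injured 1 and 37 in injured 2. In injured 1 the free RNA held 528 CPM of Prdx2 and 812 CPM of Gpx1, against 129 and 663 CPM in disc cells, and 2444 CPM of the haemoglobin gene Hbb-bs. Txnip in free RNA was 80.4, 87.0 and 57.8 CPM in control 2, injured 1 and injured 2, near its level in the disc cells of both injured libraries and below that in the disc cells of control 2.

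A list of 73 further redox genes gave 0 calls of 61 tested in disc cells, with 10 at an unadjusted p under 0.05 (9.1% of all genes) and 1 by DESeq2 (1.04%). It gave 0 of 57 in the inner class, with 6 at an unadjusted p under 0.05 (8.43%) and 0 by DESeq2, and 1 of 38 in the outer class, where 2.53% of all genes were called. The call was Aldh3a1, an aldehyde dehydrogenase, at 45.5 and 36.1 CPM in controls and 6.01 and 2.55 CPM after injury (log2 -3.64 ± 0.75, edgeR adjusted p = 0.0408). These values rest on few UMIs, since the outer sums of control 1 and injured 1 held 109962 and 332895 UMIs in all. With the block, Aldh3a1 and the iron exporter Slc40a1 were called lower in the inner class (edgeR adjusted p = 0.00257 and 0.00352), and Aldh3a1 and the small MAF factor Maff in the outer class (0.00804 and 0.00905). When the shared barcodes were left out 2 of 56 were called in the inner class, Aldh3a1 lower and the metal ion transporter Slc39a14 higher (edgeR adjusted p = 0.0102 and 0.015, beside 2.7% of all genes). With the block as well 6 were called there (4.41%), with Atox1, Selenow and Akr1b3 higher and Ephx1 lower beside those 2. The outer class call without shared barcodes was again Aldh3a1 (2.95%), and those with the block too were Aldh3a1 and Maff (6.94%). Disc cells with the unresolved cluster had 0 (0.0179%), and Aldh3a1 was called lower with the block (2.2%). Of 11 oxidant-producing genes such as the NADPH oxidase subunit Cybb, 3 passed the count filter in disc cells and 1 in each annulus-like class, and 0 were called by edgeR or by DESeq2, with 0 at an unadjusted p under 0.05.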

How the data were processed

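UMI counts per gene and barcode of 4 libraries were deposited by the authors, made with Cell Ranger on mm10 per the submitters' processing notes; per the file headers version 6.0.0 made control 1 and version 4 the others. The annotation is not given in the sources used here. Control 1 lists 444 barcodes and the other matrices list all barcodes. Cells had at least 250 genes and genes at least 5 cells, per the labels. Clustering (scanpy 1.11.5, leidenalg 0.10.2, resolution 1) used 2000 variable genes without the members; the variable-gene method was chosen after cluster sizes were seen. Clusters were named from marker lists, and doublets were kept, with their removal as an alternative. Sums per library and class were tested with edgeR 4.0.16 (TMM, filterByExpr), with DESeq2 1.42.0 as an alternative, and the fit was tested on simulated data. Control and injured discs came from the same animals, so rounds pair the libraries, per the labels; same-round deviations correlated at 0.207, 0.246 and 0.180 in disc, inner and outer sums. Disc, inner and outer sums held 109962 to 9955330 UMIs with all barcodes, and the inner sum of control 1 held 91559 without the shared ones. Members and gene lists were chosen with earlier results of these data known. Values in every library are given for members called with or without the block and for the 2 largest inner class differences in each role; others were chosen after their values were seen. Gene positions come from GENCODE vM21.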

Additional observations from a re-analysis of the deposited data

Results flagged for a closer look

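The injury effect differed between outer and inner annulus-like cells for 4 members once the shared round 1 barcodes were left out, by the class by injury term in edgeR, beside 1.75% of all genes called and 1.13% called lower. The outer minus inner log2 difference was -2.48 ± 0.46 for Gpx3, -1.84 ± 0.45 for Prdx5, -2.19 ± 0.47 for Mt1 and -1.94 ± 0.45 for Mt2. With these barcodes 0 members were called by edgeR (0.683% of all genes) or DESeq2 (0.37%), and 10 had an unadjusted p under 0.05 (8.6% of all genes). The clusters that fill each class differed between groups, and their part in the difference was not tested. Within round 2, with 1 library per group, the injured to control ratio of Gpx3 was 1.64 in the outer class Myoc and Angptl7 cluster. It was 1.10 in the inner class Grem1 and Cnmd cluster and 0.77 in the Saa1 and Chil1 cluster. In the same order the ratios were 1.48, 1.54 and 1.00 for Prdx5, 1.44, 1.72 and 1.16 for Mt1 and 1.55, 1.77 and 0.93 for Mt2.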

How the results depend on the processing

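Rounds paired the libraries, and the replicate block gave 2 calls in the inner class (3.1%), 7 in the outer class (8.22%) and 0 in disc cells (0.503%). The percentages here are the share of all genes called in the same fit. No filter on low counts gave 3 members in disc cells (1.73%), 4 in the outer class (2.18%) and 2 for the class by injury term (0.571%). DESeq2 gave 1 in disc cells (1.04%). In the outer class a minimum of 500 genes gave 2 (2.78%), under 10% mitochondrial UMIs 2 (2.78%), the UMI minimum of control 1 2 (1.86%), resolution 2 2 (3.76%) and leaving out shared barcodes 2 (2.95%). The class by injury term gave 3 with 500 genes (1.32%), 1 under 10% mitochondrial UMIs (0.216%), 1 with the UMI minimum (0.436%) and 4 without shared barcodes (1.75%). Without shared barcodes the inner class had 4 (2.7%), and with the block as well it had 6 (4.41%), the outer class 5 (6.94%) and disc cells with unresolved cells 5 (2.2%). Leaving out each library in turn gave 0 to 5 members in disc cells (5 without injured 1, 3.79%, or without injured 2, 5.28%) and 0 to 3 in the inner class (2 without control 1, 1.01%, and 3 without injured 2, 3.83%). It gave 0 to 9 in the outer class (0 without control 2, 0.124%, 3 without control 1, 3.9%, 4 without injured 2, 3.39%, and 9 without injured 1, 10.8%) and 0 to 3 for the class by injury term (1 without control 1, 1.08%, and 3 without injured 1, 2.2%). These fits leave 1 library in an arm and assume that it varies like the other group. The median log2 difference in disc cells was 0.37 with library size only, 0.39 with 500 genes, 0.38 under 10% mitochondrial UMIs, 0.39 with the UMI minimum, 0.61 without shared barcodes, 0.33 with unresolved cells, 0.37 with both changes and 0.35 with the block too, and 0.23 to 0.55 over left-out libraries. In the inner class it was 0.29 with library size only, 0.66 without shared barcodes and 0.71 with the block too, and 0.37 to 0.47 over left-out libraries. In the outer class it was 0.34 without the filter, 0.25 with the UMI minimum, 0.20 at resolution 2, 0.16 with library size only, 0.15 without shared barcodes, with or without the block, and 0.12 with 500 genes, and -0.052 to 0.20 over left-out libraries, turning without injured 2. Library size only moved the median of all genes in the inner class to -0.15. Over left-out libraries Gstp1 ran from -3.59 to 3.59 in disc cells and from -3.33 to 3.14 in the outer class; it was called lower without injured 2 in both, the reverse of its sign with all libraries. RLE size factors and removal of doublets changed none of the 4 counts of calls, and moved the 3 medians by less than the spread between rounds. The combinations with unresolved cells or with both the block and no shared barcodes were chosen after seeing the data. The cause was not tested. Depth limits low genes most in control 1, whose inner class holds 91559 UMIs without shared barcodes.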
